A study of Mus musculus with 6 samples.

Results

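The CXC chemokines described here are 8 small secreted signal proteins, Cxcl1, Cxcl2, Cxcl5, Cxcl9, Cxcl10, Cxcl13, Cxcl14 and Cxcl16, in mouse articular cartilage. They were found by gene name among the 34709 genes of the expression table, and each of the 8 names matched 1 gene. Articular cartilage of knockout (KO) mice and of wildtype mice was compared by RNA sequencing, with 3 KO and 3 wildtype libraries, all from mice aged 18 months. The KO was bought as a line on the C57BL/6J background, the sources used here name no tissue restriction, and the methods give male littermates as the animals for the comparison in aged mice. Each library held between 52268311 and 63331135 counts, and KO replicates 2 and 3, by far the most alike pair over all genes, entered the main test as 1 sample.

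Chemokines of the CXC class guide white blood cells along gradients by binding receptors on their surface. Cxcl1, Cxcl2 and Cxcl5 bind Cxcr2 and draw in neutrophils, and they are induced by interleukin 1, tumour necrosis factor and interleukin 17 through NF-kappaB. Cxcl9 and Cxcl10 bind Cxcr3 on activated T cells and are classic products of interferon gamma signalling. Cxcl13 draws B cells through Cxcr5, Cxcl14 is made constitutively in many epithelial and connective tissues, and Cxcl16 is made as a membrane protein that binds Cxcr6 and is shed by Adam10. In joints, several of these proteins are known for their rise in synovium and cartilage during inflammation.

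The genes lie on 3 chromosomes, and positions follow the GRCm38 build. On chromosome 5, Cxcl5 spans 90759360 to 90761624, Cxcl1 spans 90891241 to 90893115 and Cxcl2 spans 90903871 to 90905938, all on the plus strand. Cxcl9 at 92321347 to 92328079 and Cxcl10 at 92346638 to 92348882 are neighbours on the minus strand of the same chromosome, and Cxcl13 lies further on at 95956951 to 95961068 on the plus strand. Cxcl14 is on chromosome 13 at 56288643 to 56296551 and Cxcl16 on chromosome 11 at 70453983 to 70459984, both on the minus strand. The gap between Cxcl1 and Cxcl2 is 10755 bp, and that between Cxcl9 and Cxcl10 is 18558 bp. The longest coding transcript has 3 exons in Cxcl2 and Cxcl10, 4 in Cxcl1, Cxcl5, Cxcl9, Cxcl13 and Cxcl14, and 5 in Cxcl16.

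The bases just before the start of these neighbouring genes are shown because interferon and NF-kappaB are known to act through elements upstream of such genes. They come from the RefSeq promoter table on GRCm38.p6, which held 6 of the 8 genes, without Cxcl5 and Cxcl16. Each is written 5′ to 3′ on the gene's own strand and stops short of the gene as the expression table places it, and positions count back from −1, the base before the RefSeq start. Capitals mark matches, on either strand, to the NF-kappaB (kappaB) consensus, to the interferon-response pattern GAAANNGAAA or to the TATA box letters TATAAA. Cxcl1 is from chr5:90891125-90891240 and Cxcl2 from chr5:90903779-90903870 on the plus strand. Cxcl9 is from chr5:92328080-92328329 and Cxcl10 from chr5:92348890-92349139 on the minus strand.
Cxcl1: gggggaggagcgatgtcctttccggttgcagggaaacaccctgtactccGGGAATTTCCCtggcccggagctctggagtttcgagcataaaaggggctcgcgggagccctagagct
Cxcl2: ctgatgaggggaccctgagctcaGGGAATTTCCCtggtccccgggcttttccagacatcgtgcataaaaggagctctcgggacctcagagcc
Cxcl9: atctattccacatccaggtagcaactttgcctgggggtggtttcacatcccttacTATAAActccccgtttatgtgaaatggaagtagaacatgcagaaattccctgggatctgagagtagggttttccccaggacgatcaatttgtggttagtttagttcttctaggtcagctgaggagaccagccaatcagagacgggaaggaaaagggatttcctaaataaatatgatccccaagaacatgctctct
Cxcl10: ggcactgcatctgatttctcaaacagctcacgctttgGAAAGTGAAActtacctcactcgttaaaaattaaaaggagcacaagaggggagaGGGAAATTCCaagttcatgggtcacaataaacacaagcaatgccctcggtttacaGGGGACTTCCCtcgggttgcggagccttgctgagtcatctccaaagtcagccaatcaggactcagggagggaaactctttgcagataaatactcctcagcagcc

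Cxcl1 and Cxcl2 carried the same 14 bases, GGGAATTTCCCTGG, beginning at −71 in Cxcl1 and at −97 in Cxcl2, and the kappaB match lay inside them. In these genes the consensus was matched on both strands, so the overlapping matches make 1 element of 11 capitals. Cxcl10 held a kappaB match at −159 to −150, overlapping matches from −104 to −94 and an interferon pattern at −213 to −204. Cxcl9 held neither pattern in this window and had a TATA match at −195 to −190. It shared the 11 bases CAGCCAATCAG with Cxcl10, from −68 in Cxcl9 and −57 in Cxcl10. Among the genes not printed, Cxcl14 had an interferon pattern at −172 to −163 and Cxcl13 a TATA match at −46 to −41. Over the same 250 bases of all 27025 genes in the table, 7.01% held the kappaB consensus, 3.04% the interferon pattern and 13.0% the TATA letters. These matches describe letters and were not tested for binding.

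**Figure D1:**
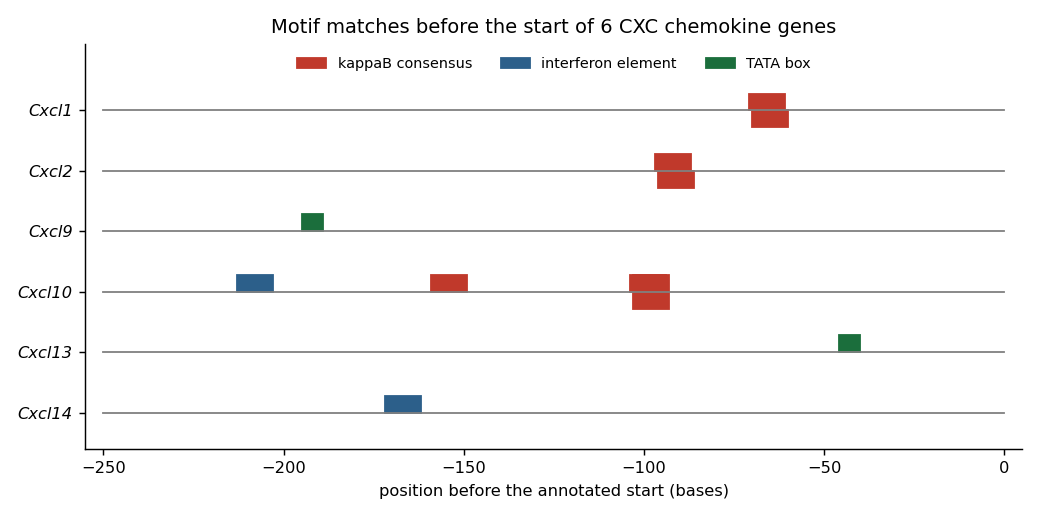
Matches to 3 patterns in the 250 bases before the RefSeq start of 6 CXC chemokine genes. The horizontal axis is the position before the start in bases, blocks above a line are matches on the gene's strand and blocks below it matches on the other strand. Cxcl1, Cxcl2 and Cxcl10 hold the kappaB matches, and Cxcl10 and Cxcl14 hold the interferon pattern.

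The tissue label was checked on marker genes before the levels were read. Of 15 chondrocyte markers, 12 had a mean of at least 0.5 FPKM (fragments counted per kilobase of transcript and scaled by library size), while Matn1, Matn3 and Col9a1 were below it. Their summed level was 1475, 670 and 679 FPKM in KO replicates 1 to 3, and 663, 878 and 785 in the wildtype replicates. Prg4 alone made 1034 of the 1475 FPKM in KO replicate 1 and 402 of the 663 FPKM in wildtype replicate 1. Col2a1 was at 12.4 to 21.3 FPKM and Acan at 13.2 to 22.8 FPKM. Osteoblast markers summed to 591, 690 and 700 FPKM in the KO and to 1350, 1215 and 475 FPKM in the wildtype libraries. The sum for 11 neutrophil and precursor markers was far higher. It ran from 50979 to 62458 FPKM in the KO and from 27021 to 43784 FPKM in the wildtype libraries. These sums did not overlap between the groups, although the values of Camp among the markers did. B cell markers ran the other way, with sums of 88.6 to 140 FPKM in the KO and 283 to 316 in the wildtype libraries. Of all tested genes, 11.3% had every KO library above every wildtype one, and 13.7% had every KO library below. In bulk tissue of this kind, fewer cells of a type and less RNA per cell cannot be told apart. What part these cell types had in the chemokine values below was not tested.

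Cxcl14 was by far the most abundant of the 8 chemokines, with a mean of 39.6 FPKM over the 6 libraries and a range of 19.1 to 61.3. It made up 71.4% to 81.1% of the summed FPKM of the 8 genes in each library. Cxcl16 followed at 4.16 FPKM, so that the means differed 9.51-fold and the ranges did not overlap. Below it came Cxcl9 at 2.93, Cxcl5 at 1.88, Cxcl10 at 1.04 and Cxcl13 at 0.723 FPKM, and Cxcl1 at 0.373 and Cxcl2 at 0.202 FPKM were the lowest. The ranges of neighbours in this lower order overlapped. Cxcl16 exceeded Cxcl9 in 5 of 6 libraries, Cxcl9 exceeded Cxcl5 in 4 of 6, and Cxcl5 exceeded Cxcl10 in 6 of 6. Cxcl10 and Cxcl13 were in this order in 4 of 6 libraries, Cxcl13 and Cxcl1 in 3 of 6, and Cxcl1 and Cxcl2 in 5 of 6. FPKM is scaled for transcript length, which is what allows levels to be set side by side between genes.

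**Figure D2:**
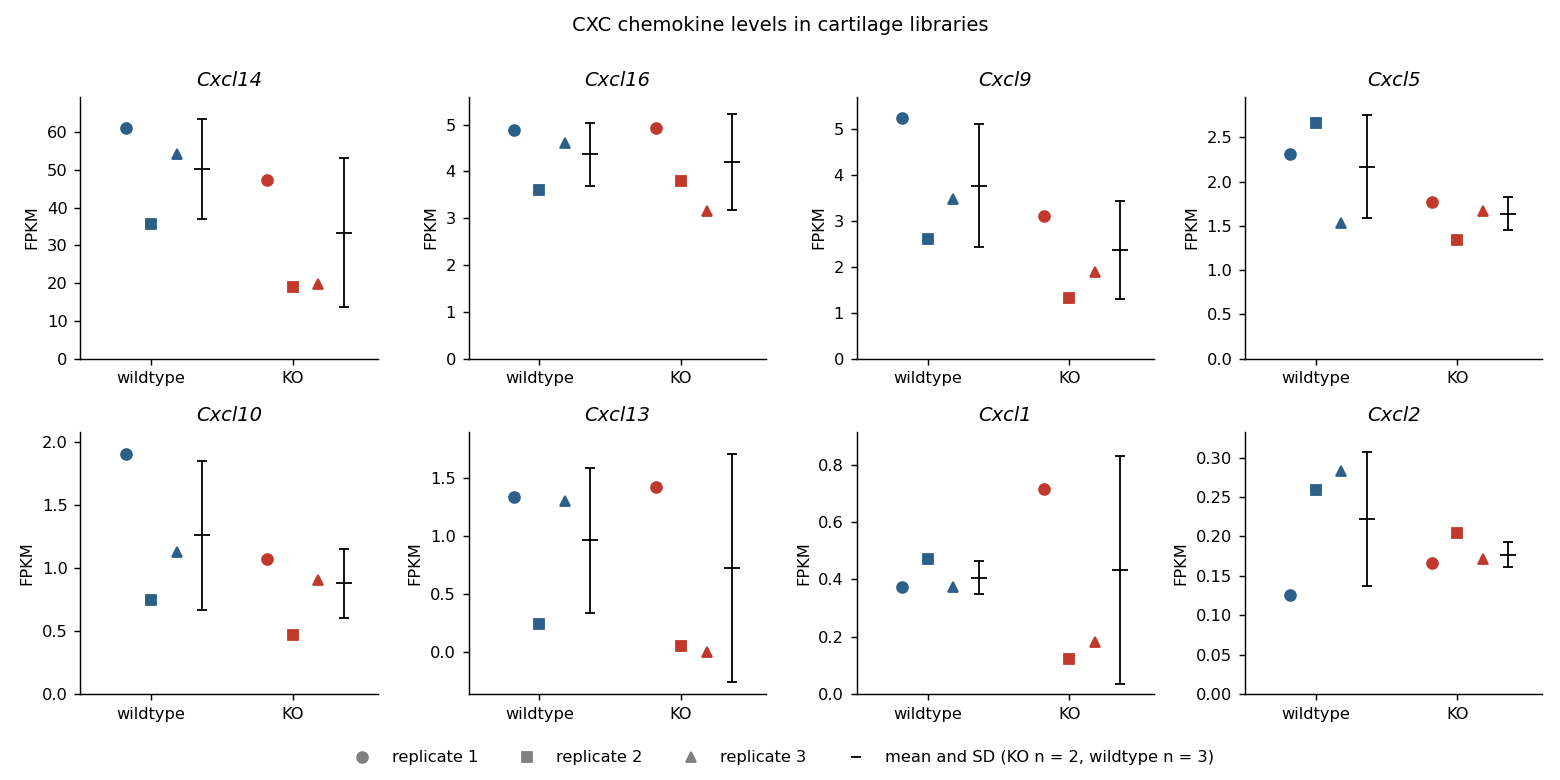
FPKM of the 8 CXC chemokines in each library, 1 panel per gene in order of mean level, with symbols for the replicate number and a bar for the mean ± SD (KO n = 2 after averaging replicates 2 and 3, wildtype n = 3). In Cxcl9, Cxcl13, Cxcl14 and Cxcl1, KO replicates 2 and 3 lie below every wildtype library and KO replicate 1 does not.

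The comparison of KO with wildtype cartilage asked which genes change in aged joints when the gene is absent. For the chemokines the answer was that no difference was detected. 6 of the 8 had a mean of at least 0.5 FPKM and were tested, and Cxcl1 and Cxcl2 fell under this limit. With 2 KO and 3 wildtype samples, 0 of the 6 passed an adjusted p of 0.05 in the quasi-likelihood test of edgeR, with p-values adjusted by Benjamini-Hochberg, as did 0% of all 15373 genes tested. At an unadjusted p under 0.05 the numbers were 0 of 6 chemokines and 13.7% of all genes (2106). DESeq2 on the same samples called 5.72% of genes (879) and 0 of the 6 chemokines. All 6 fitted differences were below 0, with a median of −0.43 on the log2 scale (KO minus wildtype) against −0.02 over all genes, of which 52.5% were below 0. No chemokine had all 3 KO libraries below all 3 wildtype libraries, a pattern shown by 13.7% of genes (2105).

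The neutrophil attractants among the 8 chemokines were present at low levels. Cxcl1, which recruits neutrophils early in inflammation, measured 0.715, 0.122 and 0.183 FPKM in KO replicates 1 to 3 and 0.373, 0.472 and 0.375 FPKM in the wildtype replicates. KO replicate 1 was the highest of the 6 libraries and KO replicates 2 and 3 were the lowest, so the wildtype values lay between them. These levels rest on 80, 17 and 25 counts in the KO and 48, 54 and 45 in the wildtype libraries. With the filter on low values left out, edgeR's quasi-likelihood test gave a log2 difference of 0.16 ± 0.61 (SE), with a 95% interval of −1.18 to 1.50 and an adjusted p of 0.977.

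Cxcl2, a close relative of Cxcl1 made by macrophages and neutrophils, was the lowest of the 8. Its values were 0.166, 0.205 and 0.171 FPKM in the KO and 0.125, 0.259 and 0.284 FPKM in the wildtype libraries. The KO libraries lay within the wildtype range. The counts ran from 18 to 38, and the exact Poisson intervals (95%) of the lowest and highest library, 0.185 to 0.492 CPM for wildtype replicate 1 and 0.475 to 0.922 CPM for wildtype replicate 3, overlapped. Here CPM is the count scaled to the total of its library, and the intervals cover counting error only. Without the filter the log2 difference was −0.31 ± 0.63 (SE; 95% interval −1.68 to 1.07; adjusted p = 0.922 in edgeR). In that fit 0.0626% of 33520 genes were called and 0 of the 8 chemokines.

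Cxcl5, the third of the 8 chemokines that binds Cxcr2, was higher than both. It measured 1.77, 1.34 and 1.66 FPKM in the KO libraries and 2.31, 2.66 and 1.53 FPKM in the wildtype libraries. Wildtype replicate 3 fell among the KO values and the other wildtype replicates lay above them. The means were 1.64 ± 0.190 FPKM in the KO (SD, n = 2) and 2.17 ± 0.581 FPKM in the wildtype (SD, n = 3). The fitted KO level was 0.768 times that of the wildtype, with a 95% interval of 0.450 to 1.31 times, and the log2 difference was −0.38 ± 0.33 (SE; adjusted p = 0.707 in edgeR). Beside these ligands, the neutrophil markers were higher in the KO in the fit for 11 of 11 genes. Of these, 7 had an unadjusted p under 0.05, against 13.7% of all tested genes.

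Cxcl9 and Cxcl10, the interferon-induced T cell attractants, followed each other across the libraries. Cxcl9 measured 3.11, 1.32 and 1.89 FPKM in KO replicates 1 to 3 and 5.23, 2.59 and 3.47 FPKM in wildtype replicates 1 to 3. KO replicates 2 and 3 were below every wildtype library, while KO replicate 1 lay between wildtype replicates 2 and 3. The fitted KO level was 0.646 times that of the wildtype (95% interval 0.344 to 1.21), a log2 difference of −0.63 ± 0.39 (SE; adjusted p = 0.557 in edgeR). This was the lowest of the 6 fitted differences.

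Cxcl10 measured 1.07, 0.465 and 0.906 FPKM in the KO and 1.91, 0.747 and 1.13 FPKM in the wildtype libraries. The groups overlapped, since KO replicates 1 and 3 lay above wildtype replicate 2. The fitted KO level was 0.716 times that of the wildtype (95% interval 0.349 to 1.47), and the log2 difference was −0.48 ± 0.44 (SE; adjusted p = 0.731 in edgeR). The gene lies inside Art3, which runs on the opposite strand at a mean of 0.375 FPKM, and no source used here states that strand was used in counting. Macrophage markers, which mark a known source of both chemokines, had summed levels of 353, 287 and 285 FPKM in the KO and 411, 338 and 443 FPKM in the wildtype libraries. Of 10 tested macrophage markers 8 were lower in the KO in the fit. At an unadjusted p under 0.05 there were 3 of the 10, against 13.7% of all tested genes.

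Cxcl13, the B cell attractant of lymphoid follicles, varied most between libraries. It measured 1.42, 0.0459 and 0 FPKM in KO replicates 1 to 3 and 1.34, 0.238 and 1.3 FPKM in wildtype replicates 1 to 3. The libraries fell into 3 at 1.3 FPKM or more, KO replicate 1 and wildtype replicates 1 and 3, and 3 with far less. In counts these were 96, 4 and 0 in the KO and 102, 17 and 95 in the wildtype libraries. At a floor of 3 counts the 0 in KO replicate 3 allows up to 0.0474 CPM, if each count is 1 read pair. Counts piled up at 4 in these data, so the limit may be higher. The log2 difference was −0.34 ± 1.23 (SE), with an interval from 0.106 to 5.89 times the wildtype level and an adjusted p of 0.956 in edgeR, so that a change of several fold in either direction was not detectable in this design. The low counts of KO replicates 2 and 3 make any fitted value that rests on them depend on the prior count of the fit.

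Other cell types moved with parts of this pattern. The summed level of 4 skeletal muscle markers was 92.3, 0.698 and 0.721 FPKM in the KO and 17.8, 34.0 and 187 FPKM in the wildtype libraries, so KO replicates 2 and 3 were lowest there too. The 3 markers of follicular dendritic cells, the main source of Cxcl13 in lymphoid tissue, summed to 6.52, 2.69 and 2.37 FPKM in the KO and to 15.2, 8.77 and 11.0 FPKM in the wildtype libraries. Of these 3, Madcam1 was under 0.5 FPKM, so the sum is nearly all Fcer2a and Cr2, which mature B cells also express. All 10 B cell markers were lower in the KO in the fit, each at an unadjusted p under 0.05, against 13.7% of all tested genes.

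Cxcl14, the constitutive chemokine of connective tissue, carried the most counts and so the smallest counting error. It measured 47.4, 19.1 and 19.9 FPKM in KO replicates 1 to 3 and 61.3, 35.6 and 54.3 FPKM in wildtype replicates 1 to 3, from 2457 to 7389 counts. KO replicates 2 and 3 were below every wildtype library, and KO replicate 1 was between wildtype replicates 2 and 3. The means were 33.4 ± 19.7 FPKM in the KO (SD, n = 2) and 50.4 ± 13.3 FPKM in the wildtype (SD, n = 3). The fitted KO level was 0.687 times that of the wildtype (95% interval 0.361 to 1.31), a log2 difference of −0.54 ± 0.39 (SE; adjusted p = 0.637 in edgeR). Fibroblast markers summed to 261, 105 and 104 FPKM in the KO and to 201, 214 and 173 FPKM in the wildtype libraries. KO replicates 2 and 3 had the lowest sums and KO replicate 1 the highest, and of the 7 markers 4 were lower and 3 higher in the KO in the fit. The 5 marrow stromal markers summed to 36.1, 26.9 and 27.4 FPKM in the KO and to 84.4, 53.6 and 70.6 FPKM in the wildtype libraries. All 5 were lower in the KO in the fit, 4 at an unadjusted p under 0.05, against 13.7% of all tested genes. Their sum, of which Adipoq made 55.8 of 84.4 FPKM in wildtype replicate 1, ranked the wildtype libraries as Cxcl14 did. The endothelial and follicular dendritic cell sums gave the same order. Unlike Cxcl14, the stromal sum was lower in every KO library than in every wildtype one, a pattern of 13.7% of all tested genes. The values of Ebf3 and Foxc1 among the stromal markers overlapped between the groups.

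Cxcl16, the membrane-bound ligand of Cxcr6 made by macrophages and dendritic cells, was the steadiest of the 8. It measured 4.93, 3.80 and 3.15 FPKM in the KO and 4.88, 3.60 and 4.61 FPKM in the wildtype libraries. KO replicate 1 was the highest and KO replicate 3 the lowest library, so the KO values spanned the wildtype ones. The fitted KO level was 0.986 times that of the wildtype with a 95% interval of 0.675 to 1.44, and the log2 difference was −0.02 ± 0.23 (SE; adjusted p = 0.989 in edgeR). Its interval was the narrowest of the 6. Cxcl16 overlaps 552 bases of Zmynd15 on the other strand, a gene with a mean of 0.600 FPKM. Dendritic cell markers summed to 17.7 to 19.8 FPKM in the KO and to 19.9 to 20.1 FPKM in the wildtype libraries.

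**Figure D3:**
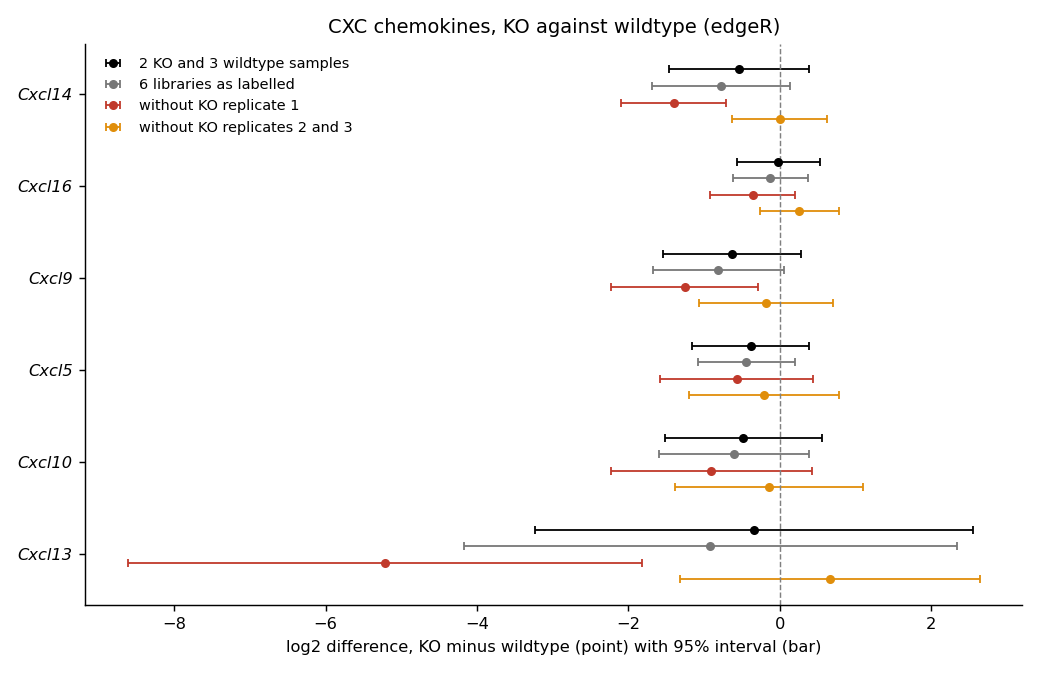
Log2 difference between KO and wildtype for the 6 tested CXC chemokines, with 95% intervals from edgeR, in the comparison of 2 KO and 3 wildtype samples and in 3 other sets of libraries. In the 2 KO and 3 wildtype samples every interval includes 0, and without KO replicate 1 those of Cxcl9, Cxcl13 and Cxcl14 lie below 0.

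The fitted differences moved with the choice of KO libraries. KO replicates 2 and 3 lay below all 3 wildtype libraries for Cxcl9, Cxcl13 and Cxcl14 among the 6 tested chemokines, and for Cxcl1 among the untested ones. This pattern was shown by 25.8% of all tested genes. When KO replicate 1 was left out, the log2 difference went to −1.40 for Cxcl14 (adjusted p = 0.0630 in edgeR), to −1.25 for Cxcl9 (adjusted p = 0.149) and to −5.21 for Cxcl13 (adjusted p = 0.104). That fit has 1 KO sample, assumed to vary like the wildtype, and it called 2.29% of all genes and 0 of the 6 chemokines. When KO replicates 2 and 3 were left out instead, Cxcl14 was at 0.00089 on the log2 scale, Cxcl9 at −0.18 and Cxcl13 at 0.66, with 0.0585% of genes and 0 of the 6 chemokines called. The median over the 6 was −1.08 in the first case and −0.07 in the second.

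With the 6 libraries taken as labelled, as 3 KO and 3 wildtype samples, 3.71% of genes passed edgeR's test and again 0 of the 6 chemokines. The log2 differences were then −0.81 for Cxcl9 (adjusted p = 0.257), −0.78 for Cxcl14 (adjusted p = 0.298), −0.61 for Cxcl10 (adjusted p = 0.461) and −0.44 for Cxcl5 (adjusted p = 0.411). Cxcl13 was at −0.91 (adjusted p = 0.757) and Cxcl16 at −0.12 (adjusted p = 0.788). For Cxcl10 the exact Poisson intervals were 0.947 to 1.50 CPM in KO replicate 2 and 1.93 to 2.69 CPM in KO replicate 3. These intervals take each count as 1 read pair, which is not known to hold here, so they may be too narrow to separate the replicates.

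The wildtype libraries also varied among themselves. The SD of log2 CPM over the 3 wildtype libraries was 1.29 for Cxcl13, 0.61 for Cxcl10, 0.46 for Cxcl9, 0.43 for Cxcl5, 0.36 for Cxcl14 and 0.18 for Cxcl16. The median over all tested genes was 0.18, so 5 of the 6 chemokines varied more than a typical gene and Cxcl16 varied about as much. For Cxcl9, Cxcl10, Cxcl13, Cxcl14 and Cxcl16, wildtype replicate 1 was the highest wildtype library and wildtype replicate 2 the lowest. Cxcl5 had another order, with wildtype replicate 2 highest and wildtype replicate 3 lowest.

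**Figure D4:**
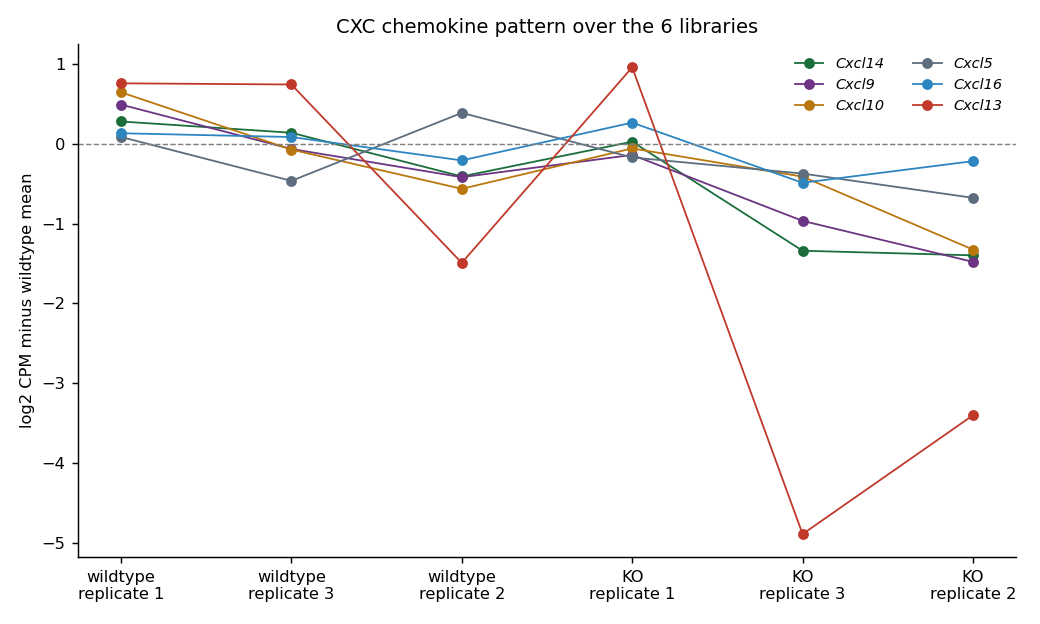
Log2 CPM of the 6 tested CXC chemokines in each library, minus the gene's mean over the wildtype libraries (vertical axis), with 1 line per gene and the libraries on the horizontal axis. Lines join values of 1 gene and show no order in time. Cxcl9 runs close to Cxcl14 and to Cxcl10, while Cxcl10 and Cxcl14 part in KO replicate 3, and Cxcl13 has the deepest lows, in KO replicates 2 and 3.

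Cxcl9 and Cxcl14 ranked the libraries identically, from wildtype replicate 1 through wildtype replicate 3, KO replicate 1, wildtype replicate 2 and KO replicate 3 down to KO replicate 2. On log2 CPM centred on the wildtype mean, these genes differed by a root mean square of 0.21 over the 6 libraries, and Cxcl9 and Cxcl10 by 0.25, while Cxcl10 and Cxcl14 differed by 0.42. Likeness of this kind was not particular to the chemokines, since among 13314 genes averaging 1 FPKM or more, 13 were nearer to Cxcl9 than Cxcl14 was and 31 were nearer than Cxcl10 was. Cxcl5 and Cxcl16 stood further from Cxcl9, at 0.57 and 0.60, and Cxcl13 furthest at 1.92. The 6 points of each gene share their libraries, so these distances are descriptions.

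The genes with the most similar pattern were named for each chemokine by the same distance. For Cxcl9 they were Tcim, Bank1 and Cbr2 at 0.137 to 0.179. For Cxcl14 they were Cav1, Thbs3 and Gm33370 at 0.140 to 0.166, and for Cxcl10 they were Ccl19, Trim34b and Ighv1-63 at 0.169 to 0.230. For Cxcl16 they were Bmyc, Clec10a and Pde4dip at 0.0605 to 0.0714, with 514 genes within 0.2, so this pattern was a common one. Cxcl5 had 79 genes within 0.2, and its nearest were Rps15a-ps3, Gm10552 and Rps3a3 at 0.10 to 0.12. Cxcl13 had no near neighbour, and the closest were Casq1, Mylf-ps and Atp2a1 at 0.859 to 1.05.

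Genes that act with the chemokines were counted as whole lists. Of 36 tested ligands, receptors, proteases and inducers, 0 passed edgeR's test with 2 KO and 3 wildtype samples, where 0% of all genes passed. At an unadjusted p under 0.05 there were 14 of the 36, against 13.7% of all genes. With the 6 libraries as labelled 6 passed (Mmp8, Lta, Cxcr2, Ltbr, Tnfrsf1a and Dpp4), against 3.71% of all genes. DESeq2 on the 2 KO and 3 wildtype samples called 9 (the same 6 with Il1b, Cxcr5 and Cxcl12), against 5.72% of all genes. The lists cover the 39 of 42 listed genes found in the table, of which Cxcl3, Cxcl11 and Ifng were too low to be tested.

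Cxcr2, the neutrophil receptor for Cxcl1, Cxcl2 and Cxcl5, measured 59.5, 110 and 118 FPKM in the KO and 43.5, 44.9 and 45.3 FPKM in the wildtype libraries. Every KO library lay above every wildtype one, and the log2 difference was 0.97 ± 0.23 (SE; adjusted p = 0.175 in edgeR with 2 KO and 3 wildtype samples, 0.0433 with the 6 libraries as labelled). Cxcr1, its relative on neutrophils, measured 0.655, 3.76 and 3.92 FPKM in the KO and 0.932, 0.463 and 0.728 FPKM in the wildtype libraries, so KO replicate 1 lay among the wildtype values. Beside these receptors, the neutrophil marker sums were also higher in each KO library than in each wildtype library.

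Cxcr5, the B cell receptor for Cxcl13, measured 2.28, 1.28 and 1.69 FPKM in the KO and 4.77, 3.29 and 3.85 FPKM in the wildtype libraries. The groups did not overlap, and the log2 difference came to −1.04 ± 0.27 (SE; adjusted p = 0.191 in edgeR with 2 KO and 3 wildtype samples, 0.0524 with the 6 libraries as labelled). Cxcr3, the T cell receptor for Cxcl9 and Cxcl10, was at −0.25 (adjusted p = 0.789) with overlapping groups, from 2.21 to 2.43 FPKM in the KO and from 2.30 to 3.62 FPKM in the wildtype libraries. Cxcr6, the receptor for Cxcl16, measured 0.818, 1.23 and 0.954 FPKM in the KO and 2.04, 1.65 and 1.27 FPKM in the wildtype libraries, a log2 difference of −0.78 ± 0.32 (SE; adjusted p = 0.345 in edgeR). Of the 9 receptors, 2 had every KO library above every wildtype library (Cxcr2 and Cxcr4), against 11.3% of all genes, and 3 had every KO library below (Cxcr5, Cxcr6 and Ackr1), against 13.7%.

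Of the atypical receptors, which bind chemokines without signalling migration, Ackr1 on red cells and venules was at −0.68 (adjusted p = 0.233 in edgeR), Ackr2 at −0.09 (adjusted p = 0.972) and Ackr3 at −0.20 (adjusted p = 0.922) on the log2 scale. As for Cxcl14, KO replicates 2 and 3 were the lowest libraries for Ackr3, with 7.46, 2.23 and 2.59 FPKM in the KO libraries against 7.57, 5.35 and 4.71 FPKM in the wildtype libraries. Beside Ackr1, erythroid markers summed to 14383 to 35437 FPKM in the KO and 40909 to 64535 FPKM in the wildtype libraries, and the 5 erythroid and 5 endothelial markers were all lower in the KO in the fit. Cxcr4, which binds Cxcl12, was at 0.23 (adjusted p = 0.544).

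**Figure D5:**
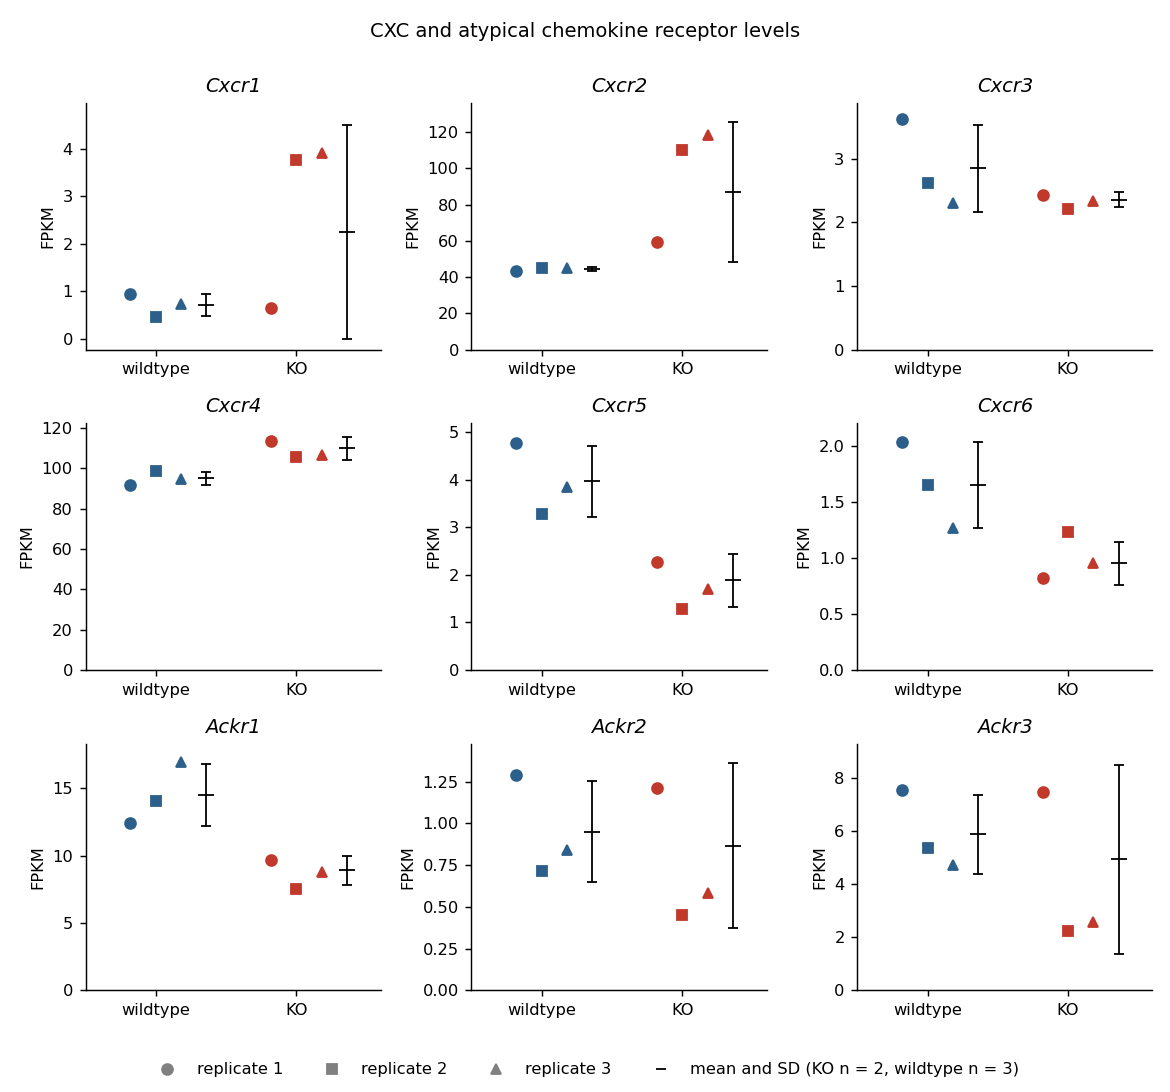
FPKM of the 9 CXC and atypical chemokine receptors in each library, 1 panel per gene, with symbols for the replicate number and a bar for the mean ± SD (KO n = 2 after averaging replicates 2 and 3, wildtype n = 3). Cxcr2 is higher and Cxcr5 lower in every KO library than in every wildtype library, and neither passes the test with 2 KO and 3 wildtype samples.

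Of the proteases that process these chemokines, Adam10, which sheds Cxcl16, was at −0.13 on the log2 scale (adjusted p = 0.761 in edgeR) and Adam17 at 0.18 (adjusted p = 0.743). Dpp4, which trims the N terminus of Cxcl9 and Cxcl10 among others, measured 1.87, 2.24 and 1.86 FPKM in the KO and 4.78, 3.41 and 3.44 FPKM in the wildtype libraries (log2 difference −0.96 ± 0.19, SE; adjusted p = 0.166 in edgeR). Mmp8, a neutrophil collagenase that is also among the neutrophil markers used here, was at 0.96 (adjusted p = 0.168), and Mmp9 at 0.40 (adjusted p = 0.592).

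Among the inducers, 5 of 19 tested genes were lower and 14 higher in the KO in the fit, with a median of 0.12 on the log2 scale. Il1b was at 0.58 (adjusted p = 0.203 in edgeR) and Tnf at 0.53 (adjusted p = 0.506), while the interferon-induced factor Irf1 was at −0.02 and the NF-kappaB inhibitor gene Nfkbia was at 0.12. Ifng itself was at 0.185 FPKM or less in every library. Lta, a lymphotoxin that drives Cxcl13 in follicles, measured 0.296, 0.123 and 0.193 FPKM in the KO and 1.42, 0.569 and 1.03 FPKM in the wildtype libraries. Its log2 difference was −2.09 ± 0.54 (SE; adjusted p = 0.186 in edgeR), on 13 to 130 counts per library. Ltb was at −0.31 (adjusted p = 0.622 in edgeR), with KO replicate 1 within the wildtype range. Ltbr went the other way, at 0.42 (adjusted p = 0.214 in edgeR). Every KO library lay above every wildtype one for Ltbr, Il1b, Il17ra, Tnfrsf1a, Ifngr2 and Nfkb1, a pattern of 11.3% of all genes. For Lta every KO library lay below every wildtype one, a pattern of 13.7%. An unadjusted p under 0.05 in edgeR was reached by 6 of the 19 inducers, against 13.7% of all tested genes. Of the other CXC ligands, the platelet proteins Pf4 and Ppbp were at −0.23 and −0.29. Cxcl12 was at −0.63 (adjusted p = 0.294 in edgeR). Their means were 234, 648 and 131 FPKM, each above that of Cxcl14 (39.6 FPKM). In each, every KO library lay below every wildtype one, a pattern of 13.7% of all genes. Cxcl3 and Cxcl11 reached at most 0.0396 FPKM.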

How the data were processed

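RNA of mouse articular cartilage was sequenced in 6 libraries, 3 KO and 3 wildtype, grouped by the sample titles. The targeted gene and its level are not reported here. The authors deposited 1 table with an FPKM value and an estimated count per gene and library. The submitters' processing notes name cutadapt 1.9, HISAT2 2.0.4, StringTie 1.3.4d, UMI-tools, DESeq2 and edgeR, and their roles are not given in the sources used here. The deposited counts were whole numbers that piled up at 4 (6596 values, against 4170 at 3 and 2332 at 5), so a count was not taken as 1 read pair, and intervals cover counting error only. A total of 1189 genes had no count, and 0 columns of per-sample values were unused. Of 34607 gene identifiers shared with GENCODE vM21, 91.5% had the same start and end.

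Totals of 52268311 to 63331135 counts put 3 counts at 0.0474 to 0.0574 CPM. This is the limit that a 0 allows if each count is 1 read pair, and it may be higher here. Between KO replicates 2 and 3 the count differences were 5.67 to 6.10 times the sampling noise, against 13.1 to 603 times in all other pairs, so their rounded mean was used as 1 sample. That noise takes each count as 1 read pair. Whether KO replicates 2 and 3 differed by more than sampling is therefore not settled. The methods call the samples of all experiments independent, without saying which animal gave which library. Nothing states how many animals gave each library, so p-values measure the spread between these samples.

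The counts were fitted with edgeR 4.0.16 in R 4.3.3 (quasi-likelihood test, TMM scaling) on the 15373 genes averaging 0.5 FPKM or more in the table. Benjamini-Hochberg adjustment ran over all of them, and called means an adjusted p under 0.05. The SE is the fitted difference divided by the square root of F. Log2 CPM used a prior count of 2. DESeq2 1.42.0, limma 3.58.1, other scalings and filters, a replicate block and leaving out libraries were alternatives, and the fits were tested on simulated data. The longest stretch shared by transcripts of any pair of the 8 chemokines was 23 bases (Cxcl1 and Cxcl2), with reads of 150 bases. The 8 genes, the lists and the naming rules (every listed gene may be named, and the 3 nearest patterns) were chosen with earlier results of these data known.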

Additional observations from a re-analysis of the deposited data

How the results depend on the processing

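No alternative brought any of the 6 tested chemokines past the threshold of an adjusted p of 0.05 in up to 17 alternatives, with Cxcl14 alone left to test at a minimum of 5 FPKM. The lowest adjusted p over the alternatives was 0.0630 for Cxcl14, 0.102 for Cxcl9, 0.104 for Cxcl13, 0.296 for Cxcl10, 0.411 for Cxcl5 and 0.443 for Cxcl16. Log2 differences ran from −0.57 to −0.17 for Cxcl5, from −1.25 to −0.18 for Cxcl9, from −0.91 to −0.09 for Cxcl10, from −5.21 to 0.66 for Cxcl13, from −1.40 to 0.00089 for Cxcl14 and from −0.36 to 0.26 for Cxcl16. Cxcl13 at 0.66, Cxcl14 at 0.00089 and Cxcl16 at 0.26 changed sign without KO replicates 2 and 3. Cxcl16, at −0.02 in the main comparison, also changed sign with quantile normalization (0.0098) and with no filter (0.011). Leaving out 1 library did so too for KO replicate 3 (0.033), wildtype replicate 1 (0.045) and wildtype replicate 3 (0.033). The median over the 6 chemokines moved to −1.08 without KO replicate 1. The cause was not tested.

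Over all genes, 570 were called with the 6 libraries as labelled, 879 by DESeq2, 21 with no filter and 9 without KO replicates 2 and 3, and leaving out 1 library gave 0 to 352 (352 without KO replicate 1, and 1 each without wildtype replicates 2 and 3). Of the 36 ligands, receptors, proteases and inducers, 6 were called with the 6 libraries as labelled, 9 by DESeq2 and 0 to 4 when 1 library was left out, the 4 being without KO replicate 1. The replicate numbers were not used to pair the samples in the main comparison. Deviations of same-numbered libraries from their group means correlated at −0.145 to −0.0581. KO replicates 2 and 3 are too alike for this to tell their numbers apart, so pairing is not excluded. With the replicate block, 0 genes, 0 chemokines and 0 of the 36 were called, and the median of the chemokines was −0.74. The median of all genes lay within 0.052 of 0 on the log2 scale in each setting. With 2 KO samples that differ as these do, differences under about the half-width of each interval do not reach an unadjusted p of 0.05. Larger ones went uncalled too, since 0% of all genes passed after adjustment with 2 KO and 3 wildtype samples.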
